A study of Homo sapiens with 6 samples.

Results

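The histone genes described here are the 36 of 60675 gene entries of the deposited table whose symbol starts with HIST1H, HIST2H, HIST3H, HIST4H, H1F, H2AF or H3F and whose FPKM (mapped fragments scaled to transcript length and to the library's depth) was at least 1 in at least 3 of the 6 libraries. That rule uses the level and the symbols and not the difference between the groups, but it was set with earlier results of these data known. The symbols matched 118 entries, of which 36 reached the level: 24 of 89 clustered entries (HIST symbols) and 12 of 29 variant entries (H1F, H2AF and H3F symbols). The libraries are total RNA of HCT116 cells, a line established from a human colon carcinoma, in 2 groups. The K29Q group (3 libraries) stably expressed PHF5A K29Q, in which glutamine stands for a lysine, and the WT group (3 libraries) stably expressed wild-type PHF5A. PHF5A belongs to SF3B, the complex with which the U2 snRNP holds the branch site of an intron. The sources used here do not give the promoter of the introduced gene, the fate of the cells' own PHF5A, or whether each line was a clone or a pool. Separate cultures are not stated for libraries of 1 group, so p-values cover only the spread among these libraries, possibly a technical one.

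Histones are the proteins on which DNA is wound. The core histones H2A, H2B, H3 and H4 form the nucleosome, and the linker histone H1 binds the DNA that enters and leaves it. The replication-dependent genes sit in clusters, lack introns in their classical form and are expressed mainly in S phase; their messengers normally end in a short stem-loop that is bound by SLBP, without a poly(A) tail. Variant (replacement) histone genes mostly lie alone in the genome, mostly have introns and poly(A) tails, and are expressed through the whole cell cycle. Several clustered genes also make longer, polyadenylated transcripts that run past the stem-loop or splice around it. The sources used here do not give whether poly(A) RNA was selected or ribosomal RNA removed.

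PHF5A itself, whose gene total may hold both the introduced and the endogenous copy, had 41.4, 45.9 and 45.0 FPKM in K29Q 1 to 3 and 32.4, 34.4 and 32.7 FPKM in WT 1 to 3, with no overlap (log2 fold change 0.40, SE 0.064, limma, adjusted p = 0.11, exact two-sided permutation p = 0.1, the smallest that 3 against 3 libraries allow). With GC content and length corrected for, PHF5A passed the threshold (limma, adjusted p = 0.0212), but not with a flow cell term (limma, adjusted p = 0.081) or a replicate block (limma, adjusted p = 0.137) added. The column headers name 2 sequencing runs, read here as flow cells: A with K29Q 1, K29Q 2 and WT 2, and B with K29Q 3, WT 1 and WT 3. Every difference given by flow cell thus rests on WT 2 alone for WT in A and on K29Q 3 alone for K29Q in B. Steps in the values of single-exon genes put the depth at 33.6M to 40.02M fragments per library, if 1 step is 1 fragment, so that 1 FPKM on a 400 nt model was 13.45 to 16.01 fragments. All 8 epithelial markers were measured, with sums of 1176 to 1233 FPKM in K29Q libraries and 1275 to 1446 FPKM in WT libraries, which do not overlap; their part in the results was not tested. For other cell types, 0 of 7 leukocyte markers reached 1 FPKM in 3 libraries, and of 8 fibroblast and endothelial markers 1 did. Of 13261 genes tested, 7 (0.0528%) passed the threshold, an adjusted p of 0.05 (20 without WT 1, 12 without K29Q 1).

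The stem-loop is the sequence that sets the replication-dependent class apart, so it was read from the GENCODE 29 transcripts of the measured genes (GRCh38). A match to the histone stem-loop consensus had a pair of 6-base arms that pair with each other around a loop of 4 bases. It was found in 14 of the 15 clustered coding genes whose transcript models extend past the coding part (the exception was HIST1H2BJ). For 7 other clustered coding genes, HIST1H1C and HIST1H2BK among them, the annotation holds the coding part alone, and the region could not be read. Among the 10 variant coding genes, 1 held it: H2AFX, which is known to be made both as a stem-loop form and as a polyadenylated form. Over all 19922 protein-coding genes of the annotation, 140 (0.703%) held a match. The 7 forms found among the measured genes are given below as DNA of the sense strand, with the arms in capitals and the loop in lower case.
HIST1H2AC, HIST1H2AI, HIST1H3H, HIST2H2AA3, HIST2H2AA4, HIST2H2BE and HIST3H2A: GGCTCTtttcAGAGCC
HIST1H2BC and HIST1H2BD: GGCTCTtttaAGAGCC
HIST1H2AG and HIST2H2BD: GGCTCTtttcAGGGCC
HIST1H3E: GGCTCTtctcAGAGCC
HIST1H4I and HIST2H4A: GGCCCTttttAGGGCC
HIST1H4J: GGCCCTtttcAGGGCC
H2AFX: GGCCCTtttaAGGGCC
The form shared by 7 genes was found in H2A, H2B and H3 genes alike. In 9 of the 14 clustered genes a model ran on for at least 100 bases after the stem-loop, by up to 1862 bases in HIST1H3E, and 6 of those 9 also held the poly(A) signal AATAAA within 50 bases of a model's end. Over all protein-coding genes of the annotation, 14586 (73.2%) held that signal in the same place. Among the clustered coding genes below the level, 18 of 23 with longer models had the stem-loop, and 14 of those 18 ran on for at least 100 bases. Of the 23 clustered entries with a model, 6 had a spliced one: HIST1H2AC, HIST1H2BC, HIST1H2BD, HIST1H2BJ, HIST1H3E and HIST2H4A. The table gives 1 value per gene, so short stem-loop forms and longer or spliced forms could not be told apart in it.

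Most clustered genes were barely measured. Of 89 clustered entries 65 stayed below the level and 14 were listed at 0 in every library, while the 24 above it had a median of 2.19 FPKM (mean of the 6 libraries), from 1.05 for HIST1H2AJ to 31.0 for HIST1H2BK. The 12 variant entries had a median of 42.2 FPKM, from 5.01 for H2AFJ to 341 for H1F0. By histone, 1 of 8 clustered H1 entries, 9 of 22 H2A, 7 of 26 H2B, 3 of 17 H3 and 4 of 16 H4 entries were above the level. By symbol, these were 16 of 67 HIST1 entries, 7 of 17 HIST2 entries, 1 of 4 HIST3 entries and 0 of 1 HIST4 entry. Just above the level, by the third-highest library, stood HIST1H2AJ (1.05 FPKM), HIST1H2AI (1.16) and HIST2H4A (1.27), and just below it HIST2H4B (0.903), HIST2H3D (0.764) and HIST1H4A (0.676). HIST2H4A was the 1 gene that did not reach 1 FPKM in at least 2 libraries of each group.

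**Figure D1:**
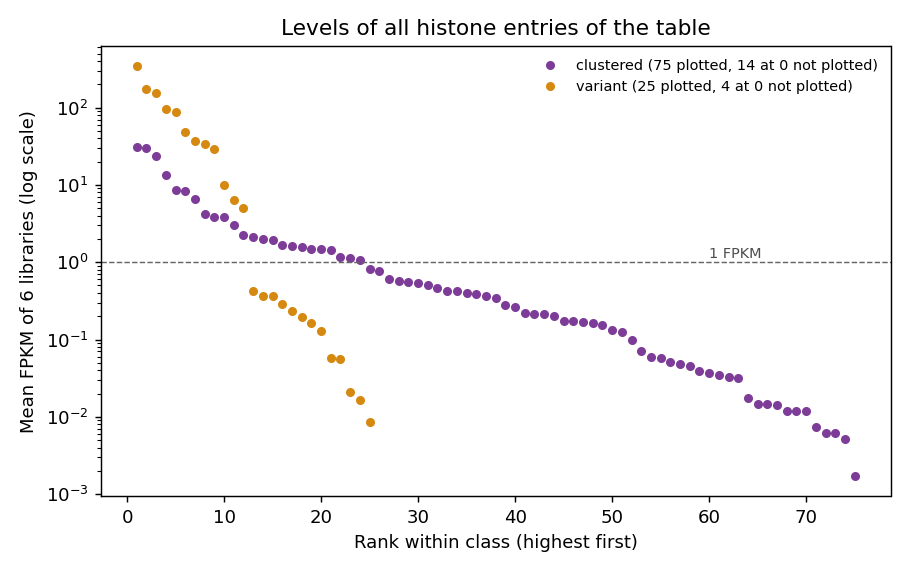
Mean FPKM of the 6 libraries (log scale) for every histone entry above 0, ranked within the clustered and the variant class, with a dashed line at 1 FPKM. The variant class drops from 5.01 FPKM straight to entries below 1, while the clustered class runs on without a gap, with 24 entries above the level and 51 plotted below it (14 more were listed at 0).

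The linker histone HIST1H1C (H1.2; ENSG00000187837, chromosome 6, 26055787 to 26056428, minus strand) was the only clustered H1 gene above the level. It had 32.0, 34.5 and 33.5 FPKM in K29Q 1 to 3, against 25.0, 29.6 and 24.55 FPKM in WT 1 to 3. The groups were separate, with WT 2 the closest of the WT libraries to the K29Q libraries. The means were 33.3 ± 1.26 FPKM in K29Q cells and 26.4 ± 2.80 FPKM in WT cells (SD, n = 3 each), a log2 fold change of 0.33 (SE 0.084, on log2(FPKM + 1) as are all fold changes here) that missed the threshold (limma, adjusted p = 0.294). By flow cell, the log2 difference was 0.16 in A and 0.42 in B.

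Among the H2B genes, HIST1H2BD (ENSG00000158373, chromosome 6, 26158146 to 26171349, plus strand) had the smallest p of all 36 genes. Its FPKM was 24.9, 27.85 and 27.8 in K29Q 1 to 3, against 20.7, 20.2 and 18.9 in WT 1 to 3. The groups did not overlap, and each was narrow: 26.9 ± 1.70 FPKM in K29Q cells and 19.9 ± 0.942 FPKM in WT cells (SD, n = 3 each). It differed by 0.41 on the log2 scale (SE 0.071), with a 95% confidence interval of 0.24 to 0.58, or by flow cell 0.37 in A and 0.47 in B, and missed the threshold (limma, adjusted p = 0.136). With GC content and length corrected for in each library it was 0.44 and passed (limma, adjusted p = 0.0227), and HIST1H2BD was then the 1 histone gene past the threshold. With a flow cell term (limma, adjusted p = 0.0732) or a replicate block (limma, adjusted p = 0.168) added to that correction it did not pass. Its annotated span, which includes the second exon of the spliced model, overlaps LARP1P1 and AL353759.1.

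HIST1H2BK, the most abundant clustered gene, had 31.0, 34.6 and 33.2 FPKM in K29Q 1 to 3, against 27.3, 33.9 and 26.2 FPKM in WT 1 to 3. Here the groups overlapped, because WT 2 fell inside the range of the K29Q libraries, and the log2 fold change was 0.18 (SE 0.104, limma, adjusted p = 0.505). By flow cell it was −0.05 in A, which holds WT 2, and 0.30 in B. HIST1H2BC had 1.61, 1.62 and 2.51 FPKM in K29Q 1 to 3 and 1.53, 1.09 and 1.44 FPKM in WT 1 to 3, without overlap but with K29Q 3 far above the other K29Q libraries (log2 fold change 0.30, SE 0.140, limma, adjusted p = 0.431). HIST2H2BD, a transcribed pseudogene of the chromosome 1 cluster, had 4.64, 4.41 and 4.80 FPKM in K29Q 1 to 3 and 3.34, 4.34 and 3.70 FPKM in WT 1 to 3 (log2 fold change 0.23, SE 0.089, limma, adjusted p = 0.389). Its groups were separated by the small gap between K29Q 2 and WT 2, which lay on the same flow cell, and 67.2% of its 150-base stretches also occur in another gene. The other H2B entries, HIST2H2BC, HIST1H2BJ and HIST2H2BE, overlapped between the groups, with log2 fold changes of 0.07, 0.06 and −0.11.

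The clustered H2A genes showed no separated pair of groups among 9. HIST3H2A, of the small HIST3 cluster on chromosome 1, had 14.6, 13.5 and 11.9 FPKM in K29Q 1 to 3, against 12.0, 13.1 and 14.3 FPKM in WT 1 to 3. Its libraries were interleaved, with a log2 fold change of 0.02 (95% confidence interval −0.21 to 0.25). HIST1H2AC had the largest fold change of the 36 and the widest spread: 8.66, 5.17 and 8.96 FPKM in K29Q 1 to 3, against 6.81, 6.59 and 2.835 FPKM in WT 1 to 3 (log2 fold change 0.46, SE 0.309, limma, adjusted p = 0.5585). WT 3 was far below the rest and K29Q 2 lay below WT 1 and WT 2, and by flow cell the log2 difference was 0.02 in A and 0.86 in B. HIST2H2AA3 and HIST2H2AA4 are copies of each other, sharing 100% and 96.4% of their 150-base stretches with another gene. HIST2H2AA3 had 9.635, 8.22 and 8.78 FPKM in K29Q 1 to 3 and 8.26, 7.53 and 8.84 FPKM in WT 1 to 3, and HIST2H2AA4 had 9.18, 8.55 and 8.56 FPKM in K29Q 1 to 3 and 7.90, 7.72 and 8.65 FPKM in WT 1 to 3. For both, WT 3 lay above K29Q 2 and K29Q 3 and below K29Q 1. Their sum was 18.8, 16.8 and 17.3 FPKM in K29Q 1 to 3 and 16.15, 15.25 and 17.5 FPKM in WT 1 to 3, a ratio of 1.08 with overlapping groups. The other 5 H2A genes (HIST2H2AC, HIST1H2AM, HIST1H2AG, HIST1H2AI and HIST1H2AJ) had means of 1.05 to 2.28 FPKM and overlapped between the groups.

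The 3 clustered H3 genes had at most 2.09 FPKM on average. HIST1H3E had 1.62, 2.08 and 2.27 FPKM in K29Q 1 to 3, against 1.55, 1.29 and 1.30 FPKM in WT 1 to 3. The groups did not overlap, though K29Q 1 stood close to WT 1 (log2 fold change 0.33, SE 0.102, limma, adjusted p = 0.361; by flow cell 0.31 in A and 0.43 in B). HIST1H3E had no 150-base stretch in common with another gene. HIST1H3D (log2 fold change 0.19) and HIST1H3H (0.00) overlapped between the groups. The H4 genes code for the same protein, and some share much of their sequence, which HIST1H4I, with no shared 150-base stretch, does not. HIST1H4J and HIST1H4K, of which 72.8% and 100% of the 150-base stretches occur in another gene, together had 5.975, 7.34 and 7.52 FPKM in K29Q 1 to 3, against 6.57, 7.22 and 6.59 FPKM in WT 1 to 3. HIST1H4I (log2 fold change 0.14) and HIST2H4A (−0.02) also overlapped between the groups. Counting error alone is large for such genes, since HIST1H2AJ at 1 FPKM stood for an estimated 14 to 18 fragments per library and HIST1H4J for 31 to 50, against 568 to 886 for HIST1H1C. These estimates cover counting error only.

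**Figure D2:**
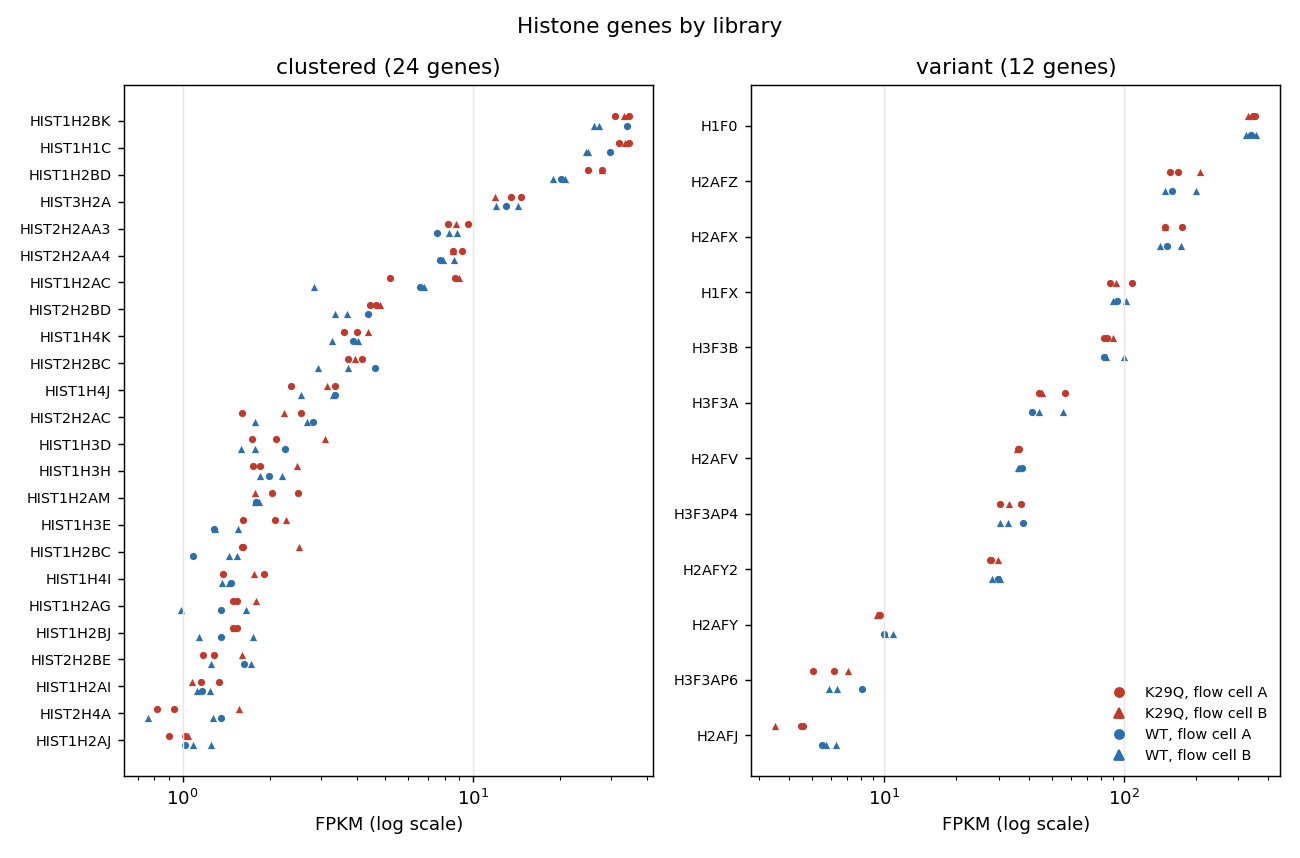
FPKM (log scale) of each of the 36 histone genes in every library, ordered by mean level, clustered genes on the left and variant genes on the right, with K29Q (red, upper row) and WT (blue, lower row) and the flow cell by symbol. HIST1H2BD, HIST1H1C, HIST1H3E, HIST1H2BC and HIST2H2BD lie higher in all K29Q libraries, and H2AFJ and H2AFY lower.

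Of the variant linker histones, H1F0 had the highest level of all histone genes. H1F0 (H1.0), a linker histone that accumulates in cells that stop dividing or differentiate, had 344, 352 and 329 FPKM in K29Q 1 to 3, against 324, 339 and 357 FPKM in WT 1 to 3. H1FX had 108, 87.8 and 92.3 FPKM in K29Q 1 to 3, against 90.0, 93.5 and 102 FPKM in WT 1 to 3. Both overlapped fully, each with a log2 fold change of 0.01, and the 95% confidence intervals ran from −0.14 to 0.15 for H1F0 and from −0.21 to 0.22 for H1FX. Both were above 0 in flow cell A and below 0 in flow cell B.

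Of the H2A variants, 6 were measured. H2AFZ, which codes for H2A.Z at promoters and enhancers, had 155, 168 and 207 FPKM in K29Q 1 to 3, against 200, 159 and 149 FPKM in WT 1 to 3. The high libraries were K29Q 3 and WT 1, both of flow cell B, while WT 3, also of flow cell B, was the lowest. The groups overlapped (log2 fold change 0.06, SE 0.144). H2AFX, the variant that is phosphorylated at DNA breaks, had 174, 148 and 149 FPKM in K29Q 1 to 3, against 141, 151 and 173 FPKM in WT 1 to 3, again with overlap (log2 fold change 0.02, SE 0.1001). H2AFV, the second H2A.Z gene, varied least for its level (it had the smallest SE of the 36 log2 fold changes, 0.053), with 36.2 ± 0.313 FPKM in K29Q cells and 36.7 ± 0.868 FPKM in WT cells (SD, n = 3 each; log2 fold change −0.02, 95% confidence interval −0.14 to 0.11).

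H2AFJ (ENSG00000246705, chromosome 12, 14774383 to 14778002, plus strand), which codes for H2A.J, was the lowest of the measured variants and the one with the largest difference. It had 4.56, 4.49 and 3.51 FPKM in K29Q 1 to 3, against 5.70, 5.50 and 6.29 FPKM in WT 1 to 3. There was no overlap, and K29Q 3 was the lowest library. The means were 4.19 ± 0.589 FPKM in K29Q cells and 5.83 ± 0.409 FPKM in WT cells (SD, n = 3 each), a log2 fold change of −0.40 (SE 0.0997), with a 95% confidence interval of −0.64 to −0.17, that missed the threshold (limma, adjusted p = 0.287). By flow cell it was −0.23 in A and −0.63 in B. H2AFY, one of the genes for macroH2A, a variant with a large extra domain found on silent chromatin, had 9.64, 9.55 and 9.33 FPKM in K29Q 1 to 3 and 10.1, 9.98 and 10.8 FPKM in WT 1 to 3, also without overlap but with a small difference (log2 fold change −0.11, SE 0.060, limma, adjusted p = 0.4997). H2AFY overlaps AC026691.1 and C5orf66 in the annotation. H2AFY2, the other macroH2A gene, overlapped between the groups with 28.5 ± 1.17 FPKM in K29Q cells and 29.45 ± 1.10 FPKM in WT cells (SD, n = 3 each).

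H3.3, the replacement form of H3, comes from H3F3A and H3F3B. H3F3B had 82.3, 84.8 and 89.8 FPKM in K29Q 1 to 3, against 84.4, 82.7 and 99.7 FPKM in WT 1 to 3, and H3F3A had 56.6, 44.2 and 45.5 FPKM in K29Q 1 to 3, against 55.6, 41.2 and 44.4 FPKM in WT 1 to 3. K29Q 1 and WT 1 stood above the other libraries for H3F3A, and for neither gene did the groups separate (log2 fold changes −0.05 and 0.05). The processed pseudogenes H3F3AP4 and H3F3AP6 repeat the H3F3A messenger, with 100% and 32.8% of their 150-base stretches found in another gene. H3F3A and the pseudogenes H3F3AP4 and H3F3AP6 added up to 92.1, 87.65 and 85.7 FPKM in K29Q 1 to 3 and 94.8, 87.1 and 80.8 FPKM in WT 1 to 3, a ratio of 1.01.

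**Figure D3:**
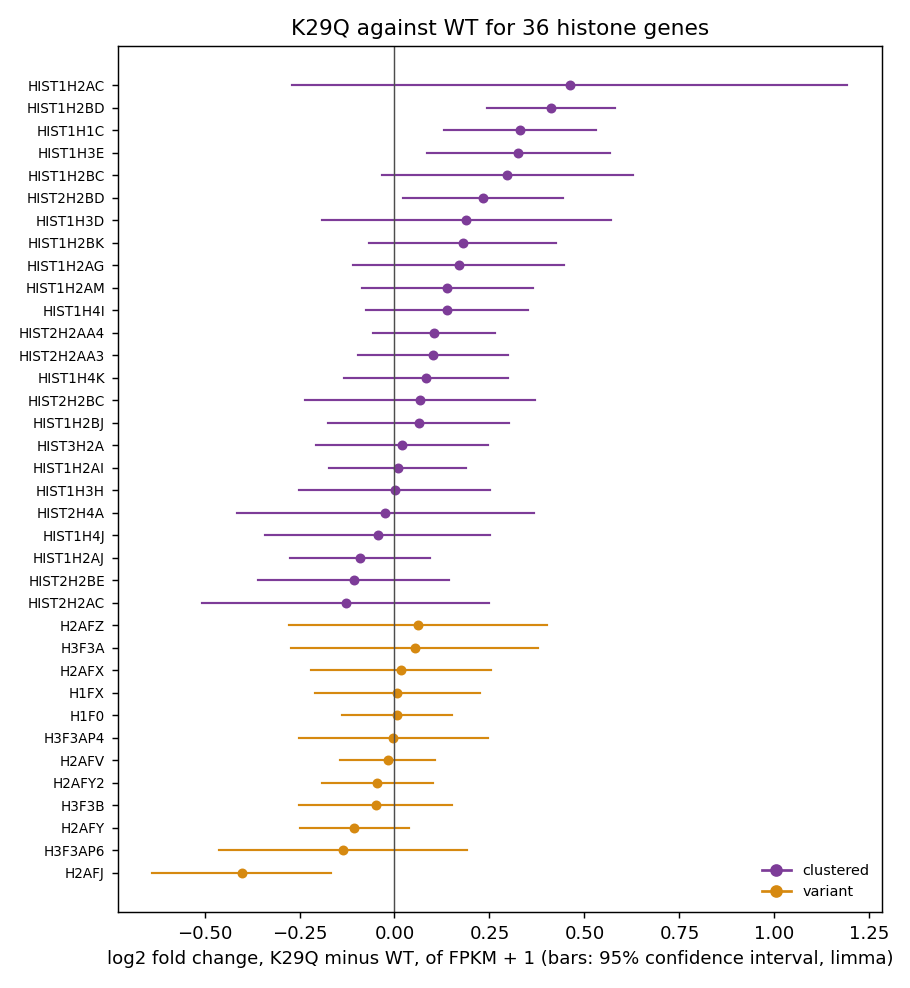
Log2 fold change, K29Q minus WT, of FPKM + 1 for the 36 histone genes, with the 95% confidence interval from limma, clustered genes above variant genes. Of the clustered genes 19 of 24 lie above 0, and of the variant genes 5 of 12. After quantile normalization these numbers are 17 and 7.

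Set side by side, the clustered genes leaned towards higher values in K29Q cells and the variant genes did not, and no single gene passed the threshold. Relative to the WT mean, the variant genes averaged −0.05, −0.06 and −0.05 on the log2 scale in K29Q 1 to 3. In WT 1 to 3 they averaged −0.01, −0.01 and 0.01, so all K29Q means lay lower. H2AFJ, at −0.40, lay furthest below 0 among them. Of the clustered genes 19 of 24 (79.2%) had a fold change above 0, with a median log2 fold change of 0.10, and of the variant genes 5 of 12 (41.7%), with a median of −0.01 (0.03 after quantile normalization). Among coding genes alone, 17 of 22 clustered (77.3%) and 5 of 10 variant genes (50%) lay above 0, with medians of 0.10 and −0.0054. The pseudogenes H3F3AP4 and H3F3AP6 both lay below 0. Over all genes tested 51.0% lay above 0 and the median was 0.00. By histone, the clustered medians were 0.10 for 9 H2A, 0.18 for 7 H2B, 0.19 for 3 H3 and 0.03 for 4 H4 entries. The sign of the median differed between the flow cells for H3 (−0.09 in A, 0.43 in B) and H4 (−0.10 in A, 0.20 in B). WT 2 was the only WT library of A and K29Q 3 the only K29Q library of B. A difference between flow cells therefore cannot be told apart from a difference of those libraries. Without WT 1 only 2 variant genes lay above 0, and without K29Q 1 only 3. With each library left out in turn, the clustered genes above 0 ran from 16 (without WT 3) to 20 (without K29Q 2 or WT 2). The clustered median was 0.05 in flow cell A, where 14 genes lay above 0, and 0.20 in flow cell B, where 20 did. The clustered minus variant difference of the medians was 0.11 (0.06 after quantile normalization), and by flow cell 0.07 in A and 0.24 in B. Fold changes over all genes moved with GC content, with medians of 0.15 up to 40% GC, 0.03 from 40 to 50%, −0.04 from 50 to 60% and −0.05 above 60%. No histone gene lay in the lowest class. From 40 to 50% GC, 11 clustered genes had a median of 0.17 and 5 variant genes −0.02. From 50 to 60%, 3 clustered genes had 0.02 and 5 variant genes −0.04, and above 60%, 9 clustered genes had 0.10 and 2 variant genes 0.01. Genes of a cluster, and copies that share reads, are not independent, and no test of the class difference was made.

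Over both classes together, the share of genes past a line was close to that of the whole table. Of the 36 histone genes 0 passed at an adjusted p of 0.05, and 5 (13.9%) had an unadjusted p under 0.05 in limma, against 12.5% of all genes tested. All 4 on the higher side were clustered (HIST1H2BD, HIST1H1C, HIST1H3E and HIST2H2BD; 16.7% of 24, against 7.65% of all genes), and the 1 on the lower side was H2AFJ (8.33% of 12, against 4.89%). Without K29Q 3 the count was 3 of 36. The groups did not overlap for 7 of the 36 genes (19.4%, against 17.8% of all genes): 5 clustered genes were higher (20.8% of 24, against 8.80%) and 2 variant genes lower (16.7% of 12, against 9.00%).

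Summed over the class, the clustered genes gave 165, 169 and 174 FPKM in K29Q 1 to 3, against 143, 155 and 136 FPKM in WT 1 to 3. The K29Q sums all lay above the WT sums, at a ratio of 1.17, and the ratio was 1.18 without HIST1H2BK. Without HIST1H1C and HIST1H2BD, the 2 genes with the largest differences in FPKM (left out after seeing the data), it was 1.11, with K29Q sums of 106 to 112 FPKM and WT sums of 92.4 to 105.5 FPKM. The variant genes gave 1034, 1006 and 1031 FPKM in K29Q 1 to 3, against 1015, 995 and 1045 FPKM in WT 1 to 3, a ratio of 1.005. Clustered genes made up 13.8%, 14.4% and 14.4% of the summed histone FPKM in K29Q 1 to 3 and 12.3%, 13.5% and 11.5% in WT 1 to 3. In these bulk libraries a change in the share of cells in S phase and a change in RNA per cell cannot be told apart. The sums also do not separate short stem-loop forms from longer or spliced forms.

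Genes of the cell cycle were read beside the histones, from lists chosen with earlier results of these data known. The S phase and DNA replication list had 42 genes, 5 above 0 and 37 below (median log2 fold change −0.08, by flow cell −0.10 in A and −0.05 in B), and 0 passed the threshold (limma, 7 or 16.7% at an unadjusted p under 0.05, against 12.5% of all genes, 2 higher and 5 lower). Of 25 G2 and mitosis genes 17 lay above 0, with a median of 0.12 (by flow cell 0.01 in A and 0.23 in B), and 0 passed (limma, 8 or 32% at an unadjusted p under 0.05, all higher, against 7.65% of all genes on that side). ASPM, a spindle pole protein, had 11.2, 8.53 and 11.3 FPKM in K29Q 1 to 3, against 8.05, 5.04 and 5.83 FPKM in WT 1 to 3 (log2 fold change 0.64, SE 0.168, limma, adjusted p = 0.314). CDT1, the replication licensing factor, had 33.8, 27.9 and 28.8 FPKM in K29Q 1 to 3, against 33.7, 36.01 and 39.7 FPKM in WT 1 to 3 (log2 fold change −0.27, SE 0.095, limma, adjusted p = 0.380). RFC1, the large subunit of the clamp loader and 1 of the 5 S phase genes above 0, had 10.75, 10.9 and 12.1 FPKM in K29Q 1 to 3, against 10.2, 8.48 and 8.32 FPKM in WT 1 to 3 (log2 fold change 0.29, SE 0.093, limma, adjusted p = 0.362). Relative to the WT mean, clustered histone genes averaged 0.09, 0.08 and 0.20 on the log2 scale in K29Q 1 to 3 and 0.03, 0.06 and −0.08 in WT 1 to 3. The mitosis genes averaged 0.15, 0.12 and 0.22 in K29Q 1 to 3 and 0.12, −0.04 and −0.09 in WT 1 to 3. K29Q 3 was the highest and WT 3 the lowest library for both, and for the mitosis genes WT 1 lay above K29Q 2. The S phase genes averaged −0.09, −0.05 and −0.04 in K29Q 1 to 3 and 0.00, 0.03 and −0.03 in WT 1 to 3, with no overlap. The part of the cell cycle in the histone values was not tested.

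**Figure D4:**
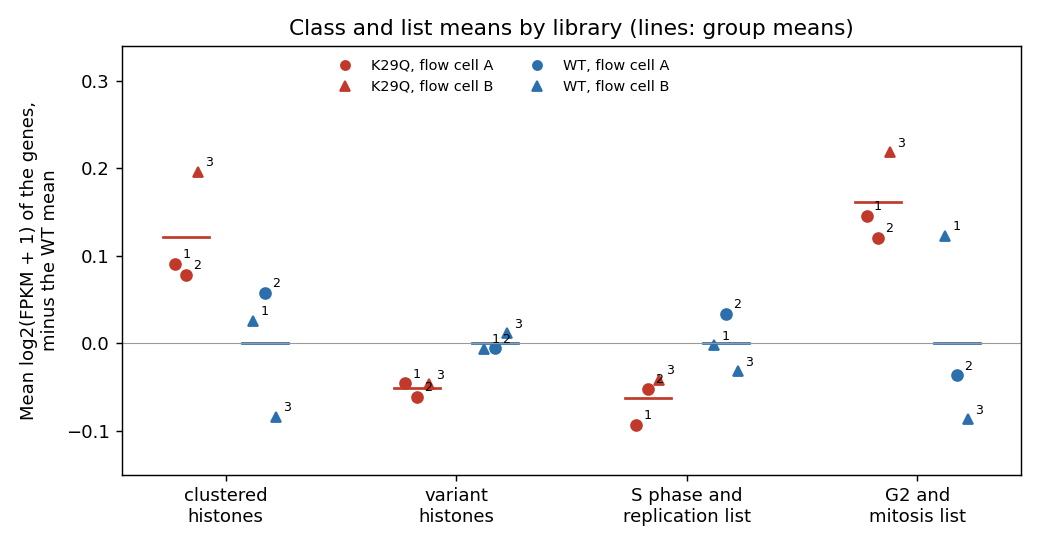
Mean log2(FPKM + 1) of the genes of a class or list in each library, minus the mean of the WT libraries, with group means as lines, replicate numbers beside the points and the flow cell by symbol. The clustered histone genes run from 0.08 to 0.20 in the K29Q libraries and from −0.08 to 0.06 in the WT libraries. The variant histone genes run from −0.06 to −0.05 in the K29Q libraries and from −0.01 to 0.01 in the WT libraries.

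Genes that process histone messengers, and that carry and place histones, had differences on both sides of 0. The list of histone messenger processing and regulation had 35 measured genes, 16 above 0 and 19 below (median log2 fold change −0.01), and 0 passed the threshold (limma, 4 or 11.4% at an unadjusted p under 0.05, against 12.5% of all genes). NCBP2, the small subunit of the nuclear cap-binding complex, had 14.1 ± 1.27 FPKM in K29Q cells and 10.9 ± 0.553 FPKM in WT cells (SD, n = 3 each; limma, adjusted p = 0.269). ERI1, the exonuclease that trims the end of histone messengers, had 3.79 ± 0.250 FPKM in K29Q cells and 5.375 ± 0.899 FPKM in WT cells (SD, n = 3 each; limma, adjusted p = 0.325). CSTF2, a cleavage factor, had 12.4 ± 0.124 FPKM in K29Q cells and 14.1 ± 0.431 FPKM in WT cells (SD, n = 3 each; limma, adjusted p = 0.367). For all 3 the groups did not overlap, as for 20% of the list and 17.8% of all genes. The chaperone and deposition list had 36 measured genes, 20 above 0 and 16 below (median 0.03), and 0 passed (limma, 6 or 16.7% at an unadjusted p under 0.05, against 12.5% of all genes). ATRX, which places H3.3 together with DAXX, had 3.17, 3.08 and 3.66 FPKM in K29Q 1 to 3, against 2.62, 1.76 and 1.80 FPKM in WT 1 to 3 (log2 fold change 0.50, SE 0.121, limma, adjusted p = 0.277). UBN1, a partner of the H3.3 chaperone HIRA, had 5.90 ± 0.148 FPKM in K29Q cells and 6.75 ± 0.107 FPKM in WT cells (SD, n = 3 each; limma, adjusted p = 0.369).

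H2A and H2B genes often stand head to head and share the stretch between their starts, so the annotated pairs were read for whether both partners were measured. Of the pairs within 1000 bases, 4 had both partners above the level. HIST1H2AC and HIST1H2BC, 218 bases apart, had log2 fold changes of 0.46 and 0.30, with 0.02 and 0.32 in flow cell A and 0.86 and 0.50 in B. HIST1H2AG and HIST1H2BJ, 291 bases apart, had 0.17 and 0.06, and by flow cell 0.10 and 0.09 in A and 0.28 and 0.05 in B. HIST2H2AC and HIST2H2BE, 322 bases apart, had −0.13 and −0.11, with −0.33 and −0.24 in A and 0.01 and 0.07 in B. HIST2H2AA3 and the pseudogene HIST2H2BD, 138 bases apart, had 0.10 and 0.23, with 0.21 and 0.05 in A and 0.04 and 0.36 in B. The partner of the abundant HIST1H2BK, HIST1H2AH, stayed below the level, as did HIST3H2BB beside HIST3H2A.

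The promoters (250 bases before to 50 bases after the start, RefSeq on GRCh38.p14) were searched on both strands for the TATA box TATAAA, the CCAAT box, the octamer ATTTGCAT, the H1 box AAACACA and the cyclic AMP response element TGACGTCA, none of which contains another. An entry was found for 21 of 24 clustered and 9 of 12 variant genes. TATAAA was in 17 of 21 clustered (81%) and 4 of 9 variant promoters (44.4%), against 14% of the promoters of 27305 genes, and CCAAT in 18 of 21 (85.7%) and 7 of 9 (77.8%), against 39.7%. The octamer was in 9 of 21 clustered (42.9%) and 1 of 9 variant promoters (11.1%), against 2.19%. Among these are both partners of the pairs HIST1H2AG and HIST1H2BJ, and HIST2H2AC and HIST2H2BE. Their searched stretches may overlap, so the same site, of the octamer or of any other motif searched, may be counted for both partners. The H1 box was in 2 of 21 (9.52%) and 1 of 9 (11.1%), against 6.94%, and TGACGTCA in 2 of 21 (9.52%) and 0 of 9, against 2.25%. The promoters of the 3 genes with the smallest p are printed to show these motifs, in capitals, on the strand of the gene; a match describes the letters only.
HIST1H2BD, chr6:26157871-26158170, plus strand: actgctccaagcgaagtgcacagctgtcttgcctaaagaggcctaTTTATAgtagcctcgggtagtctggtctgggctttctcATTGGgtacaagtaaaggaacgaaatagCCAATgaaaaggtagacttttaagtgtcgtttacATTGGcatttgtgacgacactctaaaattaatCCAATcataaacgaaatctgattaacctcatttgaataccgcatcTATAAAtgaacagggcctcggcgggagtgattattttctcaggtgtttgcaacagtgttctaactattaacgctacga
HIST1H1C, chr6:26056421-26056720, minus strand: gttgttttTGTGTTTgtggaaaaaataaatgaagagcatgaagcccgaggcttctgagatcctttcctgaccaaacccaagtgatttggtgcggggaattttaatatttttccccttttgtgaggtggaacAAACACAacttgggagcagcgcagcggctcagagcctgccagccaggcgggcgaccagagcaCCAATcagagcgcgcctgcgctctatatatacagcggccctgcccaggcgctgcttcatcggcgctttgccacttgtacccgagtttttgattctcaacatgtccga
H2AFJ, chr12:14774155-14774454, plus strand: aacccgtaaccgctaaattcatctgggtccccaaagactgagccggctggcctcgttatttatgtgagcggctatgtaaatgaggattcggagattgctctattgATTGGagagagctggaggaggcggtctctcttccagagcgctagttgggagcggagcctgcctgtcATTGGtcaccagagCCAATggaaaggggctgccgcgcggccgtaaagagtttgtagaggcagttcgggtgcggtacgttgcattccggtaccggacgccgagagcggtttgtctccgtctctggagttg
HIST1H2BD holds TATAAA and CCAAT on one strand or the other, HIST1H1C holds the H1 box and CCAAT, and H2AFJ holds CCAAT alone among the motifs searched.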

How the data were processed

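The deposited FPKM values of 60675 genes in 6 libraries were made by the authors. Per the submitters' processing notes, HISAT2 2.1.0, StringTie and GRCh38 were used. The sources used here do not give the version of StringTie, the annotation or the use of strand. Unused columns numbered 0. The members and gene lists were chosen with earlier results of these data known. The 13261 genes that reached an FPKM of 1 in 3 or more libraries were fitted as log2(FPKM + 1) with limma 3.58.1 (R 4.3.3, intensity trend, group as the only term), with Benjamini-Hochberg adjustment over all of them and a threshold of 0.05. The pseudocount understates changes of low genes. The fit was tested on simulated data with changes larger than any seen in the histone genes, so the detection of changes of their size was not tested. FPKM are not counts, so no count test was run, and depth is an estimate. Gene positions, transcripts, GC content (35 of 36 histone genes; HIST2H2BC was not found by its ID) and 150-base stretches come from GENCODE 29. Genes sharing such stretches are uncertain, since reads may be divided among them. Histone genes were given in full if among the 6 most abundant of a class or at an unadjusted p under 0.05; HIST1H2AC, HIST1H2BC, H2AFV, H2AFY, H2AFY2 and the summed copies were added after their values were seen. Alternatives were other normalization, filters, pseudocount, GC and length correction, flow cell and replicate terms, and each library left out.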

Additional observations from a re-analysis of the deposited data

How the results depend on the processing

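Under the alternatives fitted, 0 histone genes passed the threshold, except with GC and length correction, where 1 did (HIST1H2BD, and 0 with a flow cell term added). The clustered median was 0.18 for the 7 genes with a mean FPKM of at least 5, 0.2 within flow cell B, and 0.17 for the 13 coding genes sharing under 10% of their 150-base stretches, an alternative chosen after seeing the data. The clustered minus variant difference was 0.113, 0.0577 with quantile normalization, 0.0685 within flow cell A, 0.191 for genes with a mean FPKM of at least 5 and 0.241 within flow cell B, and the variant median was 0.0292 with quantile normalization. Leaving out each library, the clustered median ran from 0.0788 to 0.121, the variant median from −0.0403 to −0.0127 and their difference from 0.104 to 0.152. Over all genes tested the 7 calls became 85 with GC and length correction, 13 with quantile normalization, 11 with FPKM of at least 0.5, 4 with a flow cell term and 2 with no filter. Of 15 histone genes followed singly, 8 had the other sign in some setting (H3F3A in 6 of 17). Correlations of same-numbered libraries were −0.14, 0.179 and −0.165, and 3 libraries per group cannot settle whether the replicate numbers pair the samples. With the replicate block 0 histone genes passed, or 0 with GC and length correction (3 and 1 of all genes). Depth limits genes near 1 FPKM, where an estimated 14 fragments carry a counting error of 27.1%.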
